A study of Mus musculus with 11 samples.

Results

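The genes described here were those whose mRNA was higher wherever an Akt1 siRNA pool contained siRNA 7 and near the control level in the one pool without it. They were 75 of the 24490 genes counted, and of the 10981 genes with a group mean of at least 5 CPM (read counts scaled to the library's total in genes) in at least 1 group. Members were selected on measured values: pool 3, pool 1 and pool 4 each had a mean of at least 1.5 times scramble, and pool 2 was at 80% to 125% of scramble, with scramble taken over replicates 2 and 3. Every comparison of a pool with those scramble libraries is therefore a description of how members were chosen, and none is tested. The same holds for pool 2 against the other pools. The order among pools 3, 1 and 4 was not part of the choice, except through the minimum of 5 CPM, which a single group could meet. Ccl2, Cldn1, Gdf15, Frat2, Fam129c, Adam2 and Gstm6 met it in pool 3 alone, and Vat1l in pool 4 alone.

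The cells were primary granulosa cells of RjOrl:SWISS mice, the steroid-producing somatic cells of the follicle. All cells received 30 pmol of siRNA by lipid transfection, lost the transfection mix after 5 h and were harvested at 30 h. There were 2 libraries each from pool 3 (Akt1 siRNAs 6, 7 and 9), pool 1 (6, 7 and 8), pool 4 (7, 8 and 9) and pool 2 (6, 8 and 9), and 3 libraries from scramble, a nontargeting siRNA. The protocol calls the pools KD1 to KD4 and the sample titles number them 1 to 4, and the match between these numbers is assumed. Nothing in the labels says that the libraries of a group came from separate cultures or animals, so a p-value here reflects the spread of these libraries alone, and that spread may be technical.

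A short interfering RNA loads one strand into Argonaute, which cleaves transcripts that pair along the whole strand and represses others that pair with its seed. Several siRNAs against one target are used because effects of the intended target should be shared between them, whereas effects through other transcripts belong to one sequence. Double-stranded RNA can also be sensed by receptors such as Tlr3, which lead to interferon and its target genes. Akt1 encodes a serine/threonine kinase downstream of PI3K, which in granulosa cells carries signals of follicle-stimulating hormone and insulin-like growth factor toward survival and steroid synthesis. Atg9b, the member with the largest ratio to scramble, encodes a membrane protein related to Atg9a that moves lipids for growing autophagosomes.

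The siRNA sequences are not in the sources used here. For 59 of the 75 members a promoter window of 250 bases before to 50 after the transcript start was found in RefSeq (GRCm38.p6). The windows of 4 members are shown because the results below turn on these genes: Atg9b, the involucrin gene Ivl, the phosphatase gene Dusp1 and the antiviral gene Rsad2. All 4 lie on the minus strand and are printed 5′ to 3′ on that strand, at chr5:24392094-24392393 for Atg9b, chr3:92573686-92573985 for Ivl, chr17:26508423-26508722 for Dusp1 and chr12:26456403-26456702 for Rsad2. Capitals mark matches to the motifs searched. In Atg9b they mark a CCAAT box, and in Ivl an AP-1 site and a TATA box. In Dusp1 they mark a cyclic AMP response element (CRE) and an E-box that overlaps an antioxidant response element (ARE) on the other strand. In Rsad2 they mark, in order, an ARE on the other strand, a FOXO site, an interferon-stimulated response element (ISRE) core on the other strand, an AP-1 site and a TATA box on the other strand.
Atg9b: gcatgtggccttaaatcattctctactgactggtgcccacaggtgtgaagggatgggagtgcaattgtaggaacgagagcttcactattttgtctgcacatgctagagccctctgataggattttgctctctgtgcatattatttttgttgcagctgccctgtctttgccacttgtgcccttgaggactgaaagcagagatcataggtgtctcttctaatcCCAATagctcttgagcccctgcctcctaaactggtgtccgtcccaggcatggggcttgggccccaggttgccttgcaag
Ivl: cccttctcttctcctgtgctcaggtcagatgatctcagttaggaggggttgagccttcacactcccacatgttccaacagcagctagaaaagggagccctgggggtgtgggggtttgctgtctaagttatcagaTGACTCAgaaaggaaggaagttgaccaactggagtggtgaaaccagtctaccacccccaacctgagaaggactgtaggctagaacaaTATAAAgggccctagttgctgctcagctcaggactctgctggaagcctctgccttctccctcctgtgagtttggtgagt
Dusp1: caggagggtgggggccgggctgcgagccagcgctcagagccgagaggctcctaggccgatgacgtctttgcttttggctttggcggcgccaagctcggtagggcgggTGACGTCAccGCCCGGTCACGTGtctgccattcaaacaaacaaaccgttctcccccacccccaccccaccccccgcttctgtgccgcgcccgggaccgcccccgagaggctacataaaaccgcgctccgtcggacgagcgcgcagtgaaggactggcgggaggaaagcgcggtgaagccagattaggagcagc
Rsad2: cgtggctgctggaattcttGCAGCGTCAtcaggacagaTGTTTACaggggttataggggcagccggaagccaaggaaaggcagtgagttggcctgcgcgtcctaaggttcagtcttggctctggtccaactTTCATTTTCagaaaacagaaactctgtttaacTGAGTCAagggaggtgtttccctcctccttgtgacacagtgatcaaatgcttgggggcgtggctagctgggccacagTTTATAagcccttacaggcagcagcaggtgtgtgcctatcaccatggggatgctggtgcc

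The motifs were searched on both strands of each window, and some share letters, as the CRE and the ARE do. The ISRE core GAAANNGAA was found for 11 of 59 members (18.6%), against 8.56% of the 10682 tested genes with a window and 9.76% of all 27025 genes with one. The AP-1 site TGANTCA was found for 9 members (15.3%), against 6.48% of tested genes and 8.97% of all genes. The CRE TGACGTCA was found for 6 members (10.2%), against 3.54% and 2.03%. These 6 were Amn1, Creb5, Dusp1, Maff, Peg3 and Rad51c. The GC box GGGGCGGGG was less frequent among members, at 16.9% against 24.6% of tested genes. The other motifs were the CCAAT box CCAAT at 44.1% of members against 43%, the TATA box TATAAA at 13.6% against 8.95%, the TEAD site GGAATG at 18.6% against 14.5%, the FOXO site TGTTTAC at 5.08% against 3.04%, the ATF4 site TGATGNAA at 3.39% against 2.69%, the E-box CACGTG at 10.2% against 11.6% and the ARE TGACNNNGC at 15.3% against 16.9%. The SF1 site TCAAGGTCA was found for 0 members and 0.318% of tested genes, which says only that these letters are not in those windows. A match is a run of letters and was not tested as a binding site. Where a gene had several windows, a match in any of them counted, which applied to 17 members.

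The libraries held 23851293 (scramble replicate 3) to 32643158 (scramble replicate 1) reads in genes. Scramble replicate 1 stood apart, with a median correlation of 0.922 with the other libraries on log2 CPM across genes, against at least 0.989 for each other library. It was left out of the choice of members, and members are set against it separately below. The target itself, Akt1, was at 79.3 and 81.7 CPM in pool 3, 63.9 and 58.6 in pool 1, 55.1 and 62.4 in pool 4 and 52.7 and 55.1 in pool 2, against 529, 428 and 399 CPM in scramble. Pool 3 thus kept 19.5% of the level of scramble replicates 2 and 3, pool 1 14.8%, pool 4 14.2% and pool 2 13.0%. The pool without siRNA 7 had no more Akt1 mRNA than the others. These are bulk libraries, in which fewer cells of a type and less RNA per cell cannot be told apart.

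The same rule was applied with each of the other pools as the flat one. It left 1 gene when pool 1 was flat (siRNA 9), 0 when pool 3 was flat (siRNA 8) and 0 when pool 4 was flat (siRNA 6). The mirror rule, lower in pools 3, 1 and 4 and flat in pool 2, took 230 genes. In all, 95 genes were at least 1.5 times scramble in pools 3, 1 and 4, and 75 of these had pool 2 inside the window, 14 above it and 6 below it. The 3 members closest to the limit were Asic3, Tubb3 and Dsp, with smallest ratios of 1.503, 1.504 and 1.513. The genes just outside were Dnah9, Ppp1r35 and Stambpl1, each with a smallest ratio of 1.49.

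Across the 75 members the ratio to scramble had a median of 2.09 in pool 3 (range 1.53 to 5.80), 1.72 in pool 1 (1.51 to 5.66), 1.72 in pool 4 (1.503 to 3.23), with 1.08 in pool 2 (0.838 to 1.249). At least 2 times scramble were 44 members in pool 3, 16 in pool 1 and 15 in pool 4. Mean levels over the 3 pools with siRNA 7 ran from 4.16 to 1422 CPM with a median of 14.1, on a scale not corrected for length. In 73 of 75 members every library of pools 3, 1 and 4 lay above every library of pool 2 and scramble replicates 2 and 3, where 23.1% of all 14056 genes tested did so. The rule used these libraries, so nothing is read from that count. The exceptions were Rtp4 and Asic3. All 75 members passed the filter on low counts.

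**Figure D1:**
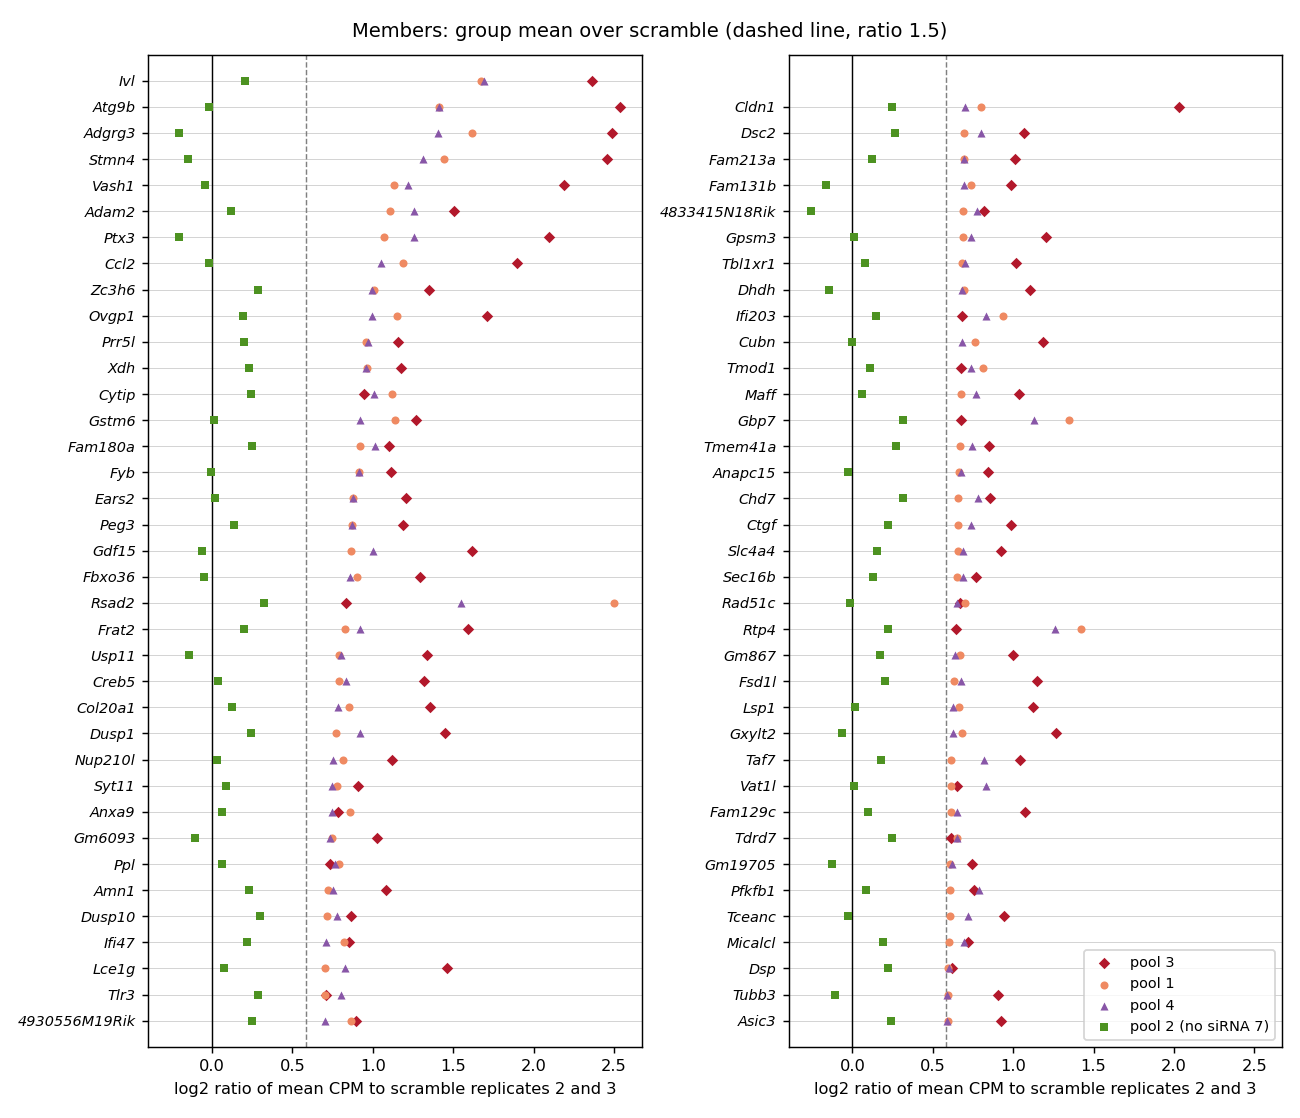
Ratio of each pool's mean CPM to the mean of scramble replicates 2 and 3 for 73 of the 75 members, on a log2 axis, ordered by the smallest ratio among pools 3, 1 and 4. The dashed line is the limit of 1.5 used to choose members. Pool 3 (diamonds) is the highest of the 3 for 60 of those drawn, while pool 1 (circles) and pool 4 (triangles) mostly lie side by side and pool 2 (squares) stays near 0.

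What the choice left free, apart from the minimum of 5 CPM, was how the members were graded among the 3 pools that hold siRNA 7. Ccl2, Cldn1, Gdf15, Frat2, Fam129c, Adam2 and Gstm6 met that minimum in pool 3 alone, so the choice favoured a higher pool 3 for them. They are included in the counts below, and counts without them were not computed. Pool 3 had the highest mean for 62 of 75 members, against 47.2% of all genes tested. Pool 3 was higher than the mean of pools 1 and 4 for 48 members (64%) by edgeR's quasi-likelihood test with Benjamini-Hochberg adjusted p below 0.05, where 12.7% of all genes tested were called in that direction. Among the 48 were Ccl2, Cldn1, Gdf15, Frat2 and Fam129c, but not Adam2 and Gstm6. Pool 3 was lower for 3 members (4%), where 17.2% of all genes were called. The median log2 difference over members was 0.29, from -1.19 for Rsad2 to 1.252 for Cldn1, with 62 above 0, and that over all genes was near 0. On the linear scale pool 3 was 1.24 times the mean of pools 1 and 4 at the median member. Any difference among the 3 pools was called for 47 members, against 23.9% of all genes.

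The grading was also seen library by library. Both pool 3 libraries lay above all 4 libraries of pools 1 and 4 for 52 members, against 26.9% of all genes tested, and below all 4 for 1 member, Cytip, against 20.1%. The 52 again include Ccl2, Cldn1, Gdf15, Frat2 and Fam129c, for which the choice favoured that order. With DESeq2 40 members were called higher in pool 3 and 0 lower. With the 10 libraries other than scramble replicate 1 in one edgeR fit 44 members were called higher and 3 lower. With all 11 libraries 1 member was called higher, Atg9b, and 2 of all genes were called.

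Pools 1 and 4 were much closer to each other. Over members their ratio was 0.859 to 1.93 with a median of 0.998. The median log2 difference, pool 1 minus pool 4, was 0.00039 over all genes tested, so the closeness is not read as particular to members. No member was called between them by edgeR (0 of 75, against 0.0285% of all genes, which are the 4 genes Cyr61, Egr1, Fos and Ier2, named after their values were seen). DESeq2 called 0 members as well. An unadjusted p below 0.05 was reached by 7 members and by 777 of all genes. The smallest adjusted p among members was 0.392 for Rsad2 (edgeR) with a log2 difference of 0.95 ± 0.24, and the median standard error of a member's log2 difference was 0.09. A p that misses the threshold does not show that the pools were equal. The count was 1 member without pool 1 replicate 1 and 3 without pool 4 replicate 1.

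**Figure D2:**
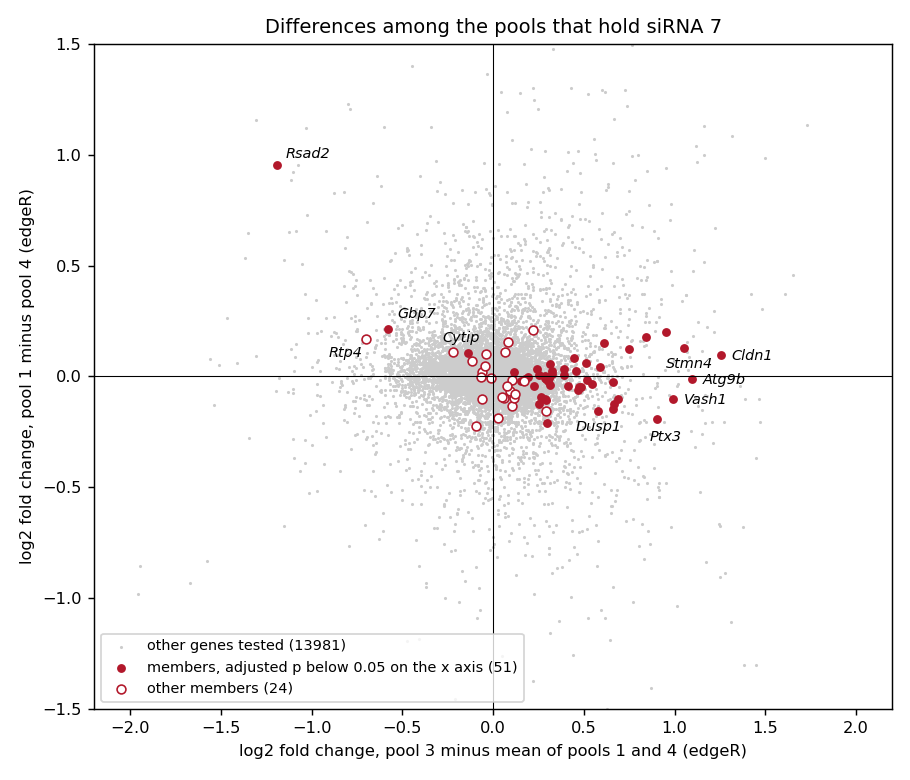
Each point is a gene, with the edgeR log2 difference of pool 3 from the mean of pools 1 and 4 on the x axis and of pool 1 from pool 4 on the y axis. Members are red, filled where the x value had an adjusted p below 0.05 (51 of 75), other tested genes are grey, and 16 genes lie outside the axes. Members spread to the right along the x axis and stay close to 0 on the y axis, except for Rsad2 at the upper left.

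Roles were assigned to members after the list was known, and genes outside the rule for named genes are mentioned for their role. Counts by role are descriptions. They are to be set against the 64% of all members called higher and the 4% called lower in pool 3. Over all genes tested these shares were 12.7% and 17.2%. Secreted factors and matrix proteins were the group with the largest median difference: all 7 rose in pool 3 over pools 1 and 4 (median log2 0.66). Among them, Ccl2 and Gdf15 met the minimum of 5 CPM in pool 3 alone, so the choice favoured that order for both. The group's median is the value of Gdf15, so nothing is read from the group's rank. Ptx3, a pentraxin that cross-links the hyaluronan matrix of the mouse cumulus, was at 38.6 and 33.3 CPM in pool 3, 17.6 and 17.7 in pool 1, 19.0 and 21.1 in pool 4 and 8.14 and 6.39 in pool 2, against 11.7, 8.40 and 8.39 CPM in scramble. Vash1, which encodes a secreted angiogenesis inhibitor that also trims the end of tubulin, was at 33.1 and 32.8 CPM in pool 3, 15.7 and 15.9 in pool 1, 16.1 and 17.5 in pool 4 and 7.58 and 6.43 in pool 2, against 5.88, 6.96 and 7.46 CPM in scramble. For both genes the pool 3 libraries lay clear of all others, and pools 1 and 4 formed a step between them and pool 2. The step down to pool 2 follows from the rule. The pool 3 difference was 0.90 ± 0.07 for Ptx3 (SE, edgeR adjusted p = 4.02e-09) and 0.99 ± 0.06 for Vash1 (edgeR adjusted p = 1.17e-10).

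The other secreted members were Ccl2, a chemokine for monocytes, Gdf15, a stress-induced member of the TGF-beta family, Ovgp1, the glycoprotein oviductin, Col20a1, a collagen, and Ctgf, a matrix-associated growth regulator known as Ccn2 in RefSeq. Ccl2 was at 6.54 and 5.95 CPM in pool 3, 3.63 and 4.02 in pool 1, 3.64 and 3.34 in pool 4 and 1.71 and 1.61 in pool 2, against 2.45, 1.77 and 1.59 CPM in scramble (pool 3 difference 0.75 ± 0.11 log2, edgeR adjusted p = 2.89e-05). Gdf15 was at 7.5 and 7.46 CPM in pool 3, 4.43 and 4.42 in pool 1, 4.58 and 5.17 in pool 4 and 2.69 and 1.97 in pool 2, against 5.94, 2.98 and 1.89 CPM in scramble (0.66 ± 0.11 log2, edgeR adjusted p = 8.36e-05). As stated above, the choice favoured a higher pool 3 for Ccl2 and Gdf15, which limits what their p-values show. Gdf15 in scramble replicate 1 was above pools 1 and 4, so its place rests on which scramble libraries are used. Ovgp1 was at 10.4 and 9.31 CPM in pool 3, 5.94 and 7.46 in pool 1, 5.98 and 6.02 in pool 4 and 3.22 and 3.68 in pool 2, against 3.37, 3.09 and 2.93 CPM in scramble (0.61 ± 0.10 log2, edgeR adjusted p = 8.68e-05). Ctgf had the most reads of any member, on a scale not corrected for length. It was at 1641 and 1593 CPM in pool 3, 1283 and 1288 in pool 1, 1353 and 1372 in pool 4 and 966 and 942 in pool 2, against 969, 882 and 752 CPM in scramble. Its groups did not overlap between pools 3, 1 and 4, and the pool 3 difference was 0.26 ± 0.03 log2 (edgeR adjusted p = 2.54e-07). Pool 1 minus pool 4 was -0.09 ± 0.03 log2 for Ctgf and did not pass (edgeR adjusted p = 0.861).

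Atg9b had the largest ratio to scramble of any member in pool 3, 5.80, beside 2.66 in pool 1, 2.66 in pool 4, with 0.986 in pool 2. It was at 22.7 and 21.4 CPM in pool 3, 10.0 and 10.2 in pool 1, 10.2 and 10.1 in pool 4 and 3.41 and 4.08 in pool 2, against 3.71, 3.83 and 3.77 CPM in scramble. Here scramble replicate 1 lay with the other scramble libraries. The levels fell into 3 separate bands: pool 3, then pools 1 and 4, then pool 2 with scramble. The rule set the lowest band apart, and only the split of pool 3 from pools 1 and 4 was left free. Pool 3 was above pools 1 and 4 by 1.096 ± 0.070 log2 (SE, edgeR adjusted p = 3.54e-10), and pool 1 minus pool 4 was -0.01 ± 0.09 (edgeR adjusted p = 0.998).

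Atg9b is annotated on chromosome 5, minus strand, from 24384181 to 24392143 (mm10, GENCODE vM21), and shares 294 exon bases with Nos3 on the other strand. Whether counting used the strand is not given in the sources used here. Nos3, the endothelial nitric oxide synthase gene, was at means of 0.275 CPM in pool 3, 0.214 in pool 1, 0.209 in pool 4, with 0.166 in pool 2, against 0.194 CPM in scramble replicates 2 and 3. Asic3, a gene for an acid-sensing cation channel, lies 21249 bases from Atg9b with 1 tested gene between them, Abcb8. Asic3 was at 9.37 and 9.43 CPM in pool 3, 6.42 and 8.57 in pool 1, 7.24 and 7.67 in pool 4 and 6.83 and 4.89 in pool 2, against 6.28, 5.34 and 4.57 CPM in scramble. Its pool 2 replicate 1 lay above its pool 1 replicate 1, and its pool 3 difference of 0.31 ± 0.12 log2 was at the threshold (edgeR adjusted p = 0.0498, and lost with DESeq2). Abcb8 was at means of 49.8 CPM in pool 3, 44.6 in pool 1, 44.7 in pool 4, with 39.8 in pool 2, against 41.0 CPM in scramble replicates 2 and 3.

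Few other autophagy genes were higher. Of a list of 38 autophagy genes, all tested, 2 rose and 13 fell in pool 3 against pools 1 and 4, where 12.7% of all genes rose and 17.2% fell. The list's median was -0.07 log2, and Atg9b was the 1 gene of the list at 1.5 times scramble or more in all 3 pools. Atg9a, the widely expressed relative, was at means of 57.7 CPM in pool 3, 64.6 in pool 1, 58.9 in pool 4, with 67.2 in pool 2, against 66.7 CPM in scramble replicates 2 and 3. Atg5, which encodes part of the conjugation complex that lipidates LC3, was at 15.4 CPM in pool 3, 17.9 in pool 1, 18.1 in pool 4, with 39.7 in pool 2, against 39.98 CPM in scramble replicates 2 and 3. Atg5 thus had the opposite direction from Atg9b in the same pools. Sec16b, a member that encodes a scaffold of sites where the endoplasmic reticulum buds vesicles, had a pool 3 difference of 0.08 ± 0.05 log2 (edgeR adjusted p = 0.238).

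Proteins of epidermal differentiation or cell junctions are encoded by 6 members, and 4 of these rose in pool 3 over pools 1 and 4 (median log2 0.48). Ivl encodes involucrin, a precursor of the cornified envelope of keratinocytes, and was at least 3.19 times scramble in each of the 3 pools, the highest such floor of any member. It was at 8.97 and 9.37 CPM in pool 3, 4.91 and 6.45 in pool 1, 6.30 and 5.21 in pool 4 and 2.30 and 1.81 in pool 2, against 3.09, 1.84 and 1.72 CPM in scramble (0.66 ± 0.11 log2, edgeR adjusted p = 0.000114). Cldn1, a claudin of tight junctions, was at 11.4 and 9.56 CPM in pool 3, 4.82 and 4.08 in pool 1, 4.54 and 3.78 in pool 4 and 2.95 and 3.11 in pool 2, against 1.78, 2.39 and 2.73 CPM in scramble. Cldn1 had the largest pool 3 difference of any member, 1.252 ± 0.108 log2 (edgeR adjusted p = 2.26e-08), while pools 1 and 4 lay close to pool 2. Cldn1 met the minimum of 5 CPM in pool 3 alone, so the choice favoured that order. Lce1g, a late cornified envelope gene 176413 bases from Ivl on chromosome 3 with 0 tested genes between them, was at 20.1 and 19.5 CPM in pool 3, 12.1 and 11.4 in pool 1, 12.7 and 12.8 in pool 4 and 8.70 and 6.46 in pool 2, against 22.4, 9.10 and 5.28 CPM in scramble. Scramble replicate 1 had the highest Lce1g level of all libraries. The desmosome genes were flatter: Dsc2 had a pool 3 difference of 0.29 ± 0.07 log2 (edgeR adjusted p = 0.0023), Ppl -0.06 ± 0.10 (adjusted p = 0.662) and Dsp -0.01 ± 0.07 (adjusted p = 0.934). Dsp was at 16.6 and 15.7 CPM in pool 3, 16.7 and 15.2 in pool 1, 16.0 and 15.9 in pool 4 and 12.8 and 11.8 in pool 2, against 3.86, 10.3 and 10.8 CPM in scramble. The 7 markers of the ovarian surface epithelium, the nearest epithelial cell type, summed to 361 to 385 CPM in pool 3, 399 to 401 in pool 1, 406 in both libraries of pool 4 and 394 to 421 in pool 2, against 365 to 383 CPM in scramble replicates 2 and 3 and 677 in scramble replicate 1. None of the 7 rose in pool 3 by edgeR, and 2 fell, where 12.7% of all genes tested rose and 17.2% fell.

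Genes best known from leukocytes were 5 of the members, of which 4 rose and 1 fell in pool 3 (median log2 0.45). Adgrg3, an adhesion receptor of granulocytes, was at 9.63 and 9.68 CPM in pool 3, 4.88 and 5.67 in pool 1, 4.50 and 4.62 in pool 4 and 1.67 and 1.31 in pool 2, against 1.93, 2.14 and 1.30 CPM in scramble. It too fell into 3 bands, the lowest set apart by the rule, with a pool 3 difference of 0.95 ± 0.10 log2 (edgeR adjusted p = 2.93e-07). The other risers were Lsp1, an actin-binding protein (0.45 ± 0.05), Gpsm3, a regulator of G protein signalling (0.47 ± 0.06), and Fyb, an adaptor of T cell signalling (0.18 ± 0.05, edgeR adjusted p = 0.0104). Cytip, which binds the Arf exchange factor cytohesin, was at 41.8 and 43.9 CPM in pool 3, 48.9 and 47.8 in pool 1, 44.8 and 44.5 in pool 4 and 26.1 and 26.4 in pool 2, against 20.4, 22.4 and 22 CPM in scramble. Here the order turned round, with pool 1 highest and pool 3 lowest of the 3, and a difference of -0.14 ± 0.04 log2 (edgeR adjusted p = 0.0143). It did not pass without pool 3 replicate 1 (edgeR adjusted p = 0.164), without pool 1 replicate 1 (0.0521) or with DESeq2 (0.0905). The 9 macrophage and leukocyte markers summed to 11.5 and 12.9 CPM in pool 3, 7.61 and 9.05 in pool 1, 8.49 and 9.39 in pool 4 and 6.86 and 8.90 in pool 2, against 10.48, 6.82 and 7.59 CPM in scramble. Of the 5 tested, 2 rose in pool 3 and 0 fell, where 12.7% of all genes tested rose and 17.2% fell. The 2 were Csf1r (0.71 ± 0.15 log2, edgeR adjusted p = 0.000965) and Cd3e (1.15 ± 0.31, edgeR adjusted p = 0.00735). Mean CPM of pools 3, 1, 4 and 2 was 3.47, 1.99, 2.22 and 1.14 for Csf1r, against 1.07 for scramble replicates 2 and 3. For Cd3e these means were 0.90, 0.41, 0.38 and 0.12, against 0.16. Both genes stayed below the minimum of 5 CPM. Cd68 reached 5.79 CPM, the highest of the 9 markers, in scramble replicate 1. The pan-leukocyte gene Ptprc reached at most 0.134 CPM in any library, the macrophage gene Adgre1 0.167 and Tyrobp 0.153, and 5 of the 9 markers stayed below 1 CPM in every library. The part of such cells in the members' levels was not tested.

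Cytoskeletal and neuronal genes were 5 members, and 4 rose in pool 3. Stmn4, a stathmin that takes tubulin from microtubules and is known from neurons, was at 27.2 and 26.5 CPM in pool 3, 14.2 and 12.5 in pool 1, 11.2 and 13.1 in pool 4 and 4.23 and 4.59 in pool 2, against 8.49, 4.75 and 5.03 CPM in scramble (1.05 ± 0.07 log2, edgeR adjusted p = 5.22e-10). Stmn4 had separate bands for pool 3 and for pools 1 and 4. Tubb3, the class III beta-tubulin of neurons, was at 237 and 242 CPM in pool 3, 194 and 193 in pool 1, 195 and 189.7 in pool 4 and 124 and 114 in pool 2, against 167, 139 and 116 CPM in scramble (0.29 ± 0.03 log2, edgeR adjusted p = 5.47e-07). Syt11, a synaptotagmin, was nearly flat across the 3 pools: 170.1 and 173 CPM in pool 3, 157 and 157 in pool 1, 155 and 153 in pool 4 and 96.2 and 98.5 in pool 2, against 87.6, 93.3 and 89.7 CPM in scramble (0.12 ± 0.03 log2, edgeR adjusted p = 0.0041). Tmod1, a capper of actin filaments, had a pool 3 difference of -0.12 ± 0.05 log2 (edgeR adjusted p = 0.107) and shares 1287 exon bases with Tstd2 on the other strand.

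**Figure D3:**
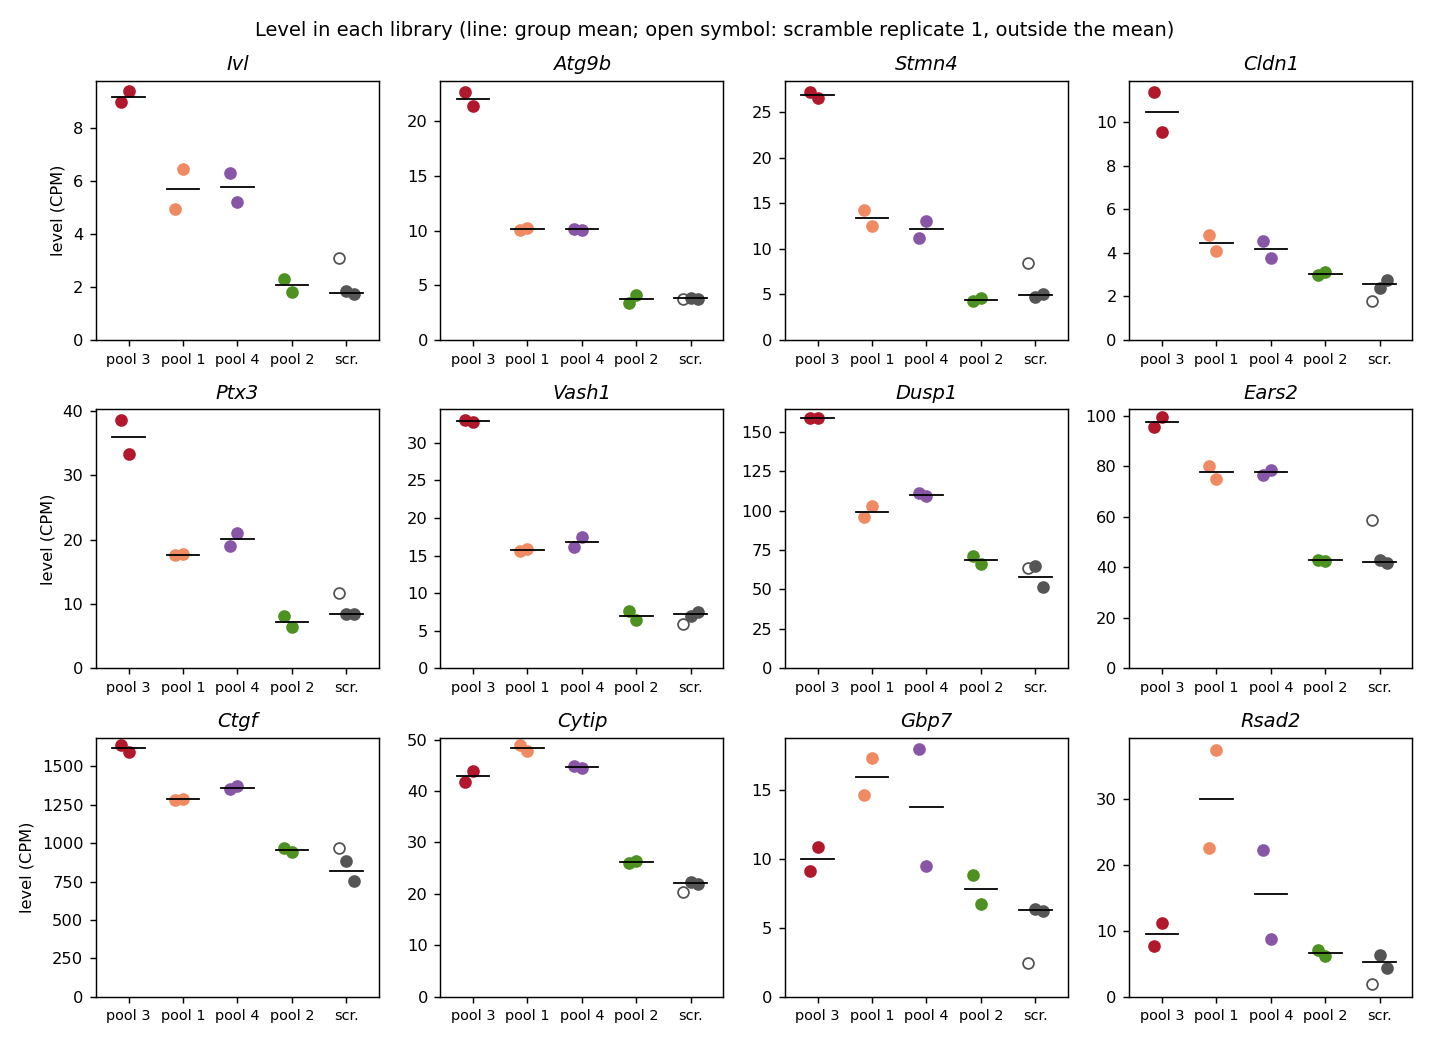
CPM in every library for 12 members chosen after their values were seen, with a line at each group mean. The open symbol is scramble replicate 1, which the mean leaves out. Most panels step down from pool 3 to pools 1 and 4 to pool 2, whereas Cytip, Gbp7 and Rsad2 have their highest mean in pool 1. The step down to pool 2 follows from the rule.

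Regulators of signalling and transcription were the largest group with a stated role, with 12 members. In pool 3, 9 of them rose and 0 fell (median log2 0.29). Dusp1, a phosphatase that switches off MAP kinases, was at 159 and 159 CPM in pool 3, 95.7 and 103 in pool 1, 111 and 109 in pool 4 and 71.1 and 66.3 in pool 2, against 63.8, 64.9 and 51.4 CPM in scramble (0.58 ± 0.03 log2, edgeR adjusted p = 1.17e-10). Both pool 4 libraries lay above both of pool 1, but that difference did not pass (-0.16 ± 0.04 log2, edgeR adjusted p = 0.451). The genes called between those pools included the immediate early genes Egr1 (-1.09 ± 0.08 log2, pool 1 minus pool 4), Fos (-0.80 ± 0.07) and Ier2 (-0.36 ± 0.05), which are no members. Creb5, a factor that binds the CRE, was at 111 and 116 CPM in pool 3, 80.5 and 76.6 in pool 1, 81.8 and 80.0 in pool 4 and 47.2 and 46.2 in pool 2, against 19.9, 46.1 and 44.9 CPM in scramble (0.49 ± 0.03 log2, edgeR adjusted p = 7.49e-10). Creb5 and Dusp1 are among the 6 members with a CRE match in the promoter window.

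Peg3, an imprinted zinc finger gene expressed from the paternal allele, was at 97.1 and 96.2 CPM in pool 3, 72.6 and 82.5 in pool 1, 79.7 and 75.9 in pool 4 and 47.4 and 45.9 in pool 2, against 2.76, 43.2 and 41.7 CPM in scramble (0.29 ± 0.04 log2, edgeR adjusted p = 1.56e-05). Scramble replicate 1 was far below the other scramble libraries for this gene. Frat2, an inhibitor of the kinase GSK3, had one of the wider gradings of the group, with 7.32 and 6.90 CPM in pool 3, 4.53 and 3.81 in pool 1, 4.34 and 4.59 in pool 4 and 2.40 and 3.01 in pool 2, against 4.26, 2.65 and 2.05 CPM in scramble (0.69 ± 0.11 log2). Frat2 met the minimum of 5 CPM in pool 3 alone, so the choice favoured that order. Zc3h6, a CCCH zinc finger gene, was at 12 and 12.1 CPM in pool 3, 10.1 and 8.91 in pool 1, 9.46 and 9.35 in pool 4 and 5.94 and 5.59 in pool 2, against 1.75, 4.79 and 4.65 CPM in scramble (0.32 ± 0.08 log2, edgeR adjusted p = 0.00415). Prr5l encodes a partner of mTOR complex 2, which phosphorylates AKT. It was at 8.97 and 9.03 CPM in pool 3, 7.19 and 8.51 in pool 1, 7.12 and 8.66 in pool 4 and 5.02 and 4.25 in pool 2, against 3.77, 4.13 and 3.94 CPM in scramble. Both pool 3 libraries of Prr5l were highest, but the difference did not pass (0.17 ± 0.10 log2, edgeR adjusted p = 0.225). The stress-induced small Maf factor Maff rose by 0.29 ± 0.05 log2 (edgeR adjusted p = 8.72e-05), and Dusp10, another MAP kinase phosphatase, had 0.09 ± 0.05 (edgeR adjusted p = 0.179).

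Interferon-induced and nucleic acid sensing genes were the one role group whose median ratio was not highest in pool 3. Their median ratio to scramble was 1.62 in pool 3, 2.23 in pool 1, 1.98 in pool 4, with 1.19 in pool 2. Of the 6, 0 rose and 2 fell in pool 3 against pools 1 and 4 (median log2 -0.40). Rsad2, which encodes the antiviral enzyme viperin, was at 7.76 and 11.1 CPM in pool 3, 22.5 and 37.4 in pool 1, 22.2 and 8.80 in pool 4 and 7.09 and 6.13 in pool 2, against 1.99, 6.26 and 4.32 CPM in scramble. The pool 3 difference was -1.19 ± 0.24 log2 (edgeR adjusted p = 0.000688, DESeq2 adjusted p = 0.0522). Gbp7, an interferon-induced GTPase, was at 9.15 and 10.9 CPM in pool 3, 14.6 and 17.3 in pool 1, 18.0 and 9.50 in pool 4 and 8.86 and 6.76 in pool 2, against 2.45, 6.34 and 6.21 CPM in scramble (-0.58 ± 0.16 log2, edgeR adjusted p = 0.00888, DESeq2 adjusted p = 0.192, and edgeR adjusted p = 0.158 without pool 3 replicate 1). In pool 4, replicate 2 lay far below replicate 1 for both genes and within the range of pool 3. Without pool 4 replicate 1 the pool 3 difference was -0.79 ± 0.17 log2 for Rsad2 (edgeR adjusted p = 0.000883) and -0.31 ± 0.11 for Gbp7 (0.0292), and without pool 4 replicate 2 it was -1.46 ± 0.15 and -0.78 ± 0.10.

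Rtp4, an interferon-induced chaperone of receptors, was at 6.69 and 9.53 CPM in pool 3, 13.7 and 14 in pool 1, 19.5 and 5.32 in pool 4 and 7.02 and 5.09 in pool 2, against 4.78, 6.19 and 4.19 CPM in scramble. Its pool 4 mean rests on replicate 1, and without that library Rtp4, Tlr3 and Ifi203 would not be members. Rsad2 and Gbp7 would not be members without scramble replicate 2, pool 2 replicate 2 or pool 3 replicate 2, and Ifi47 without scramble replicate 2. In pool 2, Rsad2 was at 1.249 and Gbp7 at 1.246 times scramble, at the edge of the window. None of the 6 stayed a member each time 1 library was left out. The pool 3 difference of Rtp4 was -0.70 ± 0.27 log2 (edgeR adjusted p = 0.0582), -0.09 ± 0.13 without pool 4 replicate 1 and -1.03 ± 0.11 without pool 4 replicate 2. Tlr3, the receptor for double-stranded RNA, was at 4.82 and 5.49 CPM in pool 3, 5.27 and 5.00 in pool 1, 6.45 and 4.55 in pool 4 and 4.33 and 3.35 in pool 2, against 1.59, 2.98 and 3.31 CPM in scramble. The pool 3 difference was -0.06 ± 0.13 log2 for Tlr3 (edgeR adjusted p = 0.767), -0.22 ± 0.14 for Ifi203 (0.271) and 0.06 ± 0.08 for Ifi47 (0.616). All 6 were higher in replicate 1 than in replicate 2 of pool 4, and all 6 were lower in replicate 1 than in replicate 2 of pool 3.

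A wider list of 33 interferon-stimulated genes holds Rsad2 and Rtp4. Its summed level was 744 and 845 CPM in pool 3, 1042 and 1062 in pool 1, 1211 and 736 in pool 4 and 845 and 682 in pool 2, against 906, 819 and 710 CPM in scramble. Pool 4 replicate 1 was the highest library and pool 4 replicate 2 was as low as pool 2 and scramble. Of the 32 tested, 0 rose and 19 fell in pool 3 against pools 1 and 4 (median -0.56 log2, edgeR), beside 12.7% higher and 17.2% lower over all genes, and 0 were called between pools 1 and 4. Among the 24 genes of the list with a group mean of at least 5 CPM, Rsad2 and Rtp4 were the 2 at 1.5 times scramble or more in all 3 pools. Oasl1, below that level, also met the ratio. It was at 1.83 CPM in pool 3, 2.78 in pool 1 and 2.05 in pool 4, against 1.16 in scramble replicates 2 and 3.

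**Figure D4:**
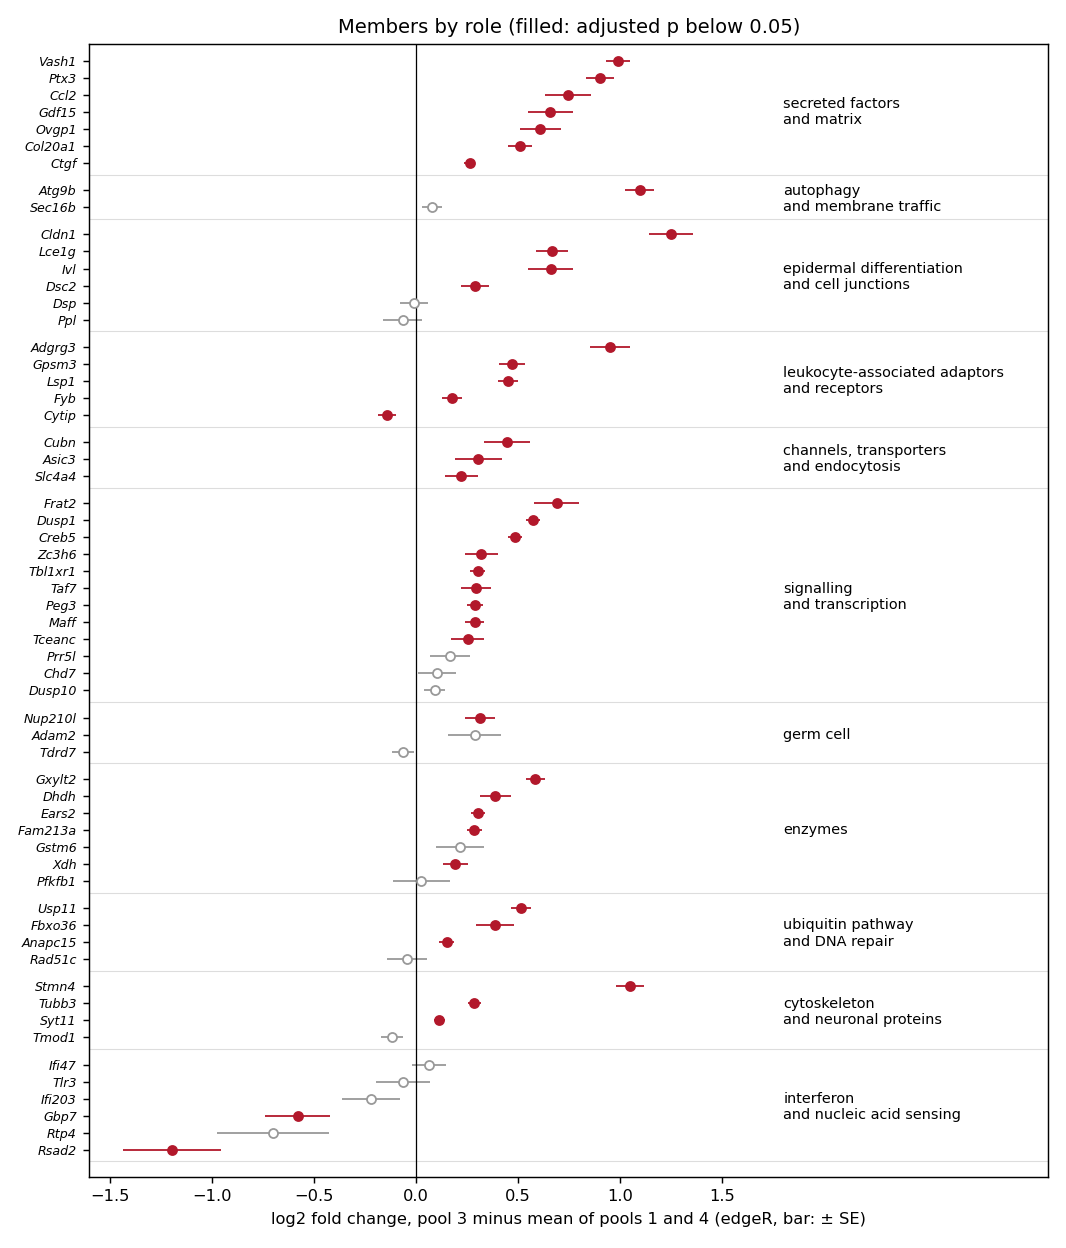
The edgeR log2 difference of pool 3 from the mean of pools 1 and 4 (bar, standard error) for 59 of the 61 members with a stated role, in 11 role groups. Filled points had an adjusted p below 0.05. Points of the secreted group all lie right of 0, and those of the interferon group lie left of 0 except Ifi47 at 0.06.

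Enzymes were 7 members, and 5 rose in pool 3 (median log2 0.29). Ears2, the mitochondrial glutamyl-tRNA synthetase gene, was at 95.7 and 99.5 CPM in pool 3, 80.1 and 75.1 in pool 1, 76.6 and 78.6 in pool 4 and 42.9 and 42.6 in pool 2, against 58.9, 42.8 and 41.8 CPM in scramble (0.31 ± 0.03 log2, edgeR adjusted p = 9.11e-07). Ears2 shares 89 exon bases with Ubfd1 on the other strand. Ubfd1 was at means of 83.3 CPM in pool 3, 92.8 in pool 1, 84.7 in pool 4, with 130.5 in pool 2, against 128.5 CPM in scramble replicates 2 and 3. The overlapping pair thus had opposite directions in the pools with siRNA 7. Gxylt2, a xylosyltransferase that acts on Notch, had the widest grading among the enzymes (0.59 ± 0.04 log2, edgeR adjusted p = 4.12e-09), and Xdh, xanthine dehydrogenase, rose by 0.19 ± 0.06 (edgeR adjusted p = 0.0223).

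Members of the ubiquitin pathway and DNA repair were 4, of which 3 rose. Anapc15, a subunit of the anaphase-promoting complex, was at 81.5 and 82.8 CPM in pool 3, 69.5 and 75.2 in pool 1, 73.3 and 72.6 in pool 4 and 45.7 and 44.1 in pool 2, against 84.5, 43.8 and 47.6 CPM in scramble (0.15 ± 0.04 log2, edgeR adjusted p = 0.00312). Its scramble replicate 1 was as high as pool 3. The deubiquitinase gene Usp11 rose by 0.52 ± 0.05 (edgeR adjusted p = 1e-07). Rad51c, a recombination gene, had -0.04 ± 0.10 (edgeR adjusted p = 0.783).

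All 4 channel, transporter and endocytosis genes rose in pool 3. Besides Asic3 they included the endocytic receptor gene Cubn (0.45 ± 0.11 log2, edgeR adjusted p = 0.00495) and the bicarbonate transporter gene Slc4a4 (0.22 ± 0.08, adjusted p = 0.0415). Germ cell genes were 3, of which Nup210l rose (0.31 ± 0.07 log2, edgeR adjusted p = 0.0025). Adam2, a sperm surface protein needed for fertilization in mice, was at 6.21 and 5.14 CPM in pool 3, 4.50 and 4.12 in pool 1, 4.22 and 5.32 in pool 4 and 2.53 and 1.81 in pool 2, against 1.44, 2.03 and 1.97 CPM in scramble. Pools 3 and 4 overlapped for Adam2, and its difference did not pass (0.29 ± 0.13 log2, edgeR adjusted p = 0.0999). Of the 14 members with no stated role here, 6 rose and 0 fell. Of all members, 5 are predicted genes or carry a Rik name.

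Other lists of stress and signalling genes held few members. Their counts are to be set against the 12.7% of all genes that rose and the 17.2% that fell in pool 3. Among 22 p53 targets, 12 rose and 2 fell in pool 3 against pools 1 and 4 (median 0.14 log2, edgeR), and Gdf15 was the member. Of 16 NRF2 targets 10 rose and 3 fell (median 0.23) with 0 members, and of 16 tested genes of inflammation and NF-kappa B 3 rose and 1 fell (median 0.03) with Ccl2 as member. Among 20 tested FOXO-induced genes, 6 rose and 4 fell (median 0.04) with 0 members. Akt1 mRNA was below scramble in pools 3, 1 and 4 alike, so these rises and falls do not compare low with unchanged Akt1. Of 18 genes of ATF4 and the unfolded protein response 2 rose and 2 fell, of 15 clock genes 4 rose and 3 fell, and of 22 lysosome genes 1 rose and 11 fell, each with 0 members. Of 15 tested granulosa markers 1 rose and 11 fell (median -0.29), with summed levels of 5273 to 5488 CPM in pool 3, 6169 to 6340 in pool 1, 5988 to 6147 in pool 4 and 6075 to 6315 in pool 2, against 6924 to 7239 CPM in scramble replicates 2 and 3. Of 9 theca and stroma markers 0 rose and 5 fell, of 4 tested endothelial markers 2 rose, of 2 tested oocyte markers 1 rose and of 4 tested Sertoli markers 1 rose. None of the 3 nitric oxide synthase genes passed the filter on low counts.

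Scramble replicate 1 was not used to choose members, but pools 3, 1 and 4 were, so the following counts are descriptions and nothing is read from them. Every library of pools 3, 1 and 4 lay above scramble replicate 1 for 63 of 75 members, against 43.1% of all genes tested. With that library as the control, 45 members were at least 1.5 times it in all 3 pools. Relative to scramble replicates 2 and 3 it was at 0.065 times for Peg3 and at up to 3.11 times for Lce1g, with a median of 0.973 over members and 1.02 over all genes tested. The 12 members not above it in every library included Gdf15, Frat2, Lce1g, Anapc15, Lsp1 and Gpsm3.

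With the mean of all 3 scramble libraries as the control the rule took 72 genes, of which 34 were among the 75. Membership near the limits also turned on single libraries. The number of members was 64 to 85 when each of the other 10 libraries was left out in turn, and 25 of the 75 were members every time. Of the original members, 53 were kept when scramble replicate 3 was left out and 54 when scramble replicate 2 was. Leaving out pool 2 replicate 2 kept 63, leaving out pool 4 replicate 1 kept 65, and leaving out any of the others kept at least 70.

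The annotation placed 73 of 75 members, on every autosome and the X chromosome, with 10 on chromosome 3 as the most. Within 1 Mb of each other were 6 neighbouring pairs, among them Ivl and Lce1g, Atg9b and Asic3, Adam2 and Stmn4 (266563 bases apart on chromosome 14), Tdrd7 and Tmod1 (4174 bases, chromosome 4) and Gdf15 and Fam129c (965192 bases, chromosome 8). For 13 members an exon overlaps an exon of another gene, on the same strand for Ifi47, Gpsm3, Ifi203 and Fam129c, and their reads could be shared. Median transcript length was 1731 bases for members (n = 73) and 1466 for all tested genes (n = 13677).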

How the data were processed

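The labels name a stranded mRNA kit with 1.3 µg of total RNA, and single 75-base reads. The submitters' processing notes list featureCounts 1.5.0-p2 and TopHat2 with the build mm10, beside cutadapt 1.9.1, FastQC 0.11.5, bcl2fastq 2.15.0 and DESeq2. How reads were assigned to strands is not given in the sources used here, nor are other settings. The values deposited by the authors are raw whole-number read counts by gene symbol, with 24490 genes and 92 ERCC spike-in sequences. ERCC lines took 0.268% to 0.788% of a library and stayed out of totals and tests. The authors' table of fold changes was not used. Counts of same-group libraries differed by more than sampling noise (chi-square per degree of freedom at least 2.72).

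Members followed the rule in the report, on CPM computed from the counts. Pools were compared with edgeR 4.0.16 in R 4.3.3 (TMM scaling, filterByExpr, quasi-likelihood F test, two-sided) on the 8 pool libraries in 4 groups, over 14056 genes with Benjamini-Hochberg adjustment. The standard error is the log2 fold change over the square root of F. The script was tested on simulated data with known changes. DESeq2 1.42.0 was an alternative, beside other scalings, filters, library sets and limits. Same-numbered libraries were not paired (correlations of their deviations -0.049 to 0.0893).

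The members and the gene lists were chosen with earlier results of these data known. Named were Atg9b, the 12 members with the largest smallest ratio, the 8 with the highest level, up to 6 called per direction between pools 3, 1 and 4, members on a list and the genes nearest the limit, 28 members in all. Predicted genes were passed over, and some genes are not reported here. Positions are from GENCODE vM21, promoters from RefSeq. Ctgf and Micalcl have no entry under those symbols in GENCODE.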

Additional observations from a re-analysis of the deposited data

How the results depend on the processing

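With all 3 scramble libraries as the control the rule took 72 genes, 34 of them among the 75, and with TMM library sizes it took 58. The number of members was 515 with pools 3, 1 and 4 at 125% of scramble or more, 9 with at least 2 times scramble, 151 with a minimum of 1 CPM, 48 with 10 CPM and 39 with pool 2 held to 0.9 to 1.1 times scramble. Leaving out 1 library at a time gave 64 to 85.

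The pool 3 differences of 24 genes, those called among the genes the rule names, kept their direction in every setting run. Atg9b's pool 1 minus pool 4 difference, -0.0104, was 0.000584 without pool 1 replicate 1. With DESeq2, 0 members were lower in pool 3, and all-gene calls were 2133 for any difference and 2774 for pool 3. With all 11 libraries, members called were 0 for any difference, 1 higher and 0 lower in pool 3, and genes called were 0 for any difference, 2 for pool 3 and 0 between pools 1 and 4. The cause was not tested, but the 10 libraries without scramble replicate 1 gave 44 members higher and 3 lower. Without the filter on low counts, 1 member was higher in pool 1 than in pool 4, and 41 of all genes were called between them.

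Leaving out 1 library gave 33 to 48 members for any difference, 36 to 48 higher and 1 to 5 lower in pool 3, 0 to 3 higher and 0 lower in pool 1 than in pool 4. Over all genes it gave 1874 to 3430, 2463 to 4238 and 2 to 37 calls for any difference, pool 3, and pool 1 against pool 4. The lowest count for pool 3 came without pool 3 replicate 1 and the highest between pools 1 and 4 without pool 4 replicate 1. The median member difference was 0.27 to 0.30 for pool 3 and -0.0492 to 0.0147 for pool 1 minus pool 4, with the lowest without pool 4 replicate 2. Single named genes kept their side of the threshold in 363 results and lost it in 37, of which Asic3, Cytip, Gbp7 and Rsad2 are described above.

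With the replicate number as a block, 47 members were higher and 3 lower in pool 3, and 4 of all genes were called between pools 1 and 4. The libraries share only a number. The largest standard error of a member, 0.27 log2, was that of Rtp4, whose pool 4 libraries differed.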

Other observations

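The genes that met the same limits in pools 3, 1 and 4 with pool 2 also above 125% of scramble were 14, and those with pool 2 below 80% were 6. The window on pool 2 thus kept 75 of the 95 genes that were higher in all 3 pools with siRNA 7. The mirror group, lower in those pools and flat in pool 2, held 230 genes.

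Akt2 was at means of 56.2 CPM in pool 3, 57.1 in pool 1, 55.2 in pool 4, with 52.7 in pool 2, against 54.3 CPM in scramble replicates 2 and 3.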
